A study of Mus musculus with 2 samples.

Results

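Intergenic transcript models are exon structures built from long reads that the deposited tables place outside annotated genes, although some touch a gene's end base. They were taken from the long-read model tables of adrenal gland, where each model carries a novelty class and a read count, by requiring the class intergenic and 2 or more reads in a library. Replicate 1 held 585 such models among 130376 and replicate 2 held 582 among 118745. The model names are given per library, so models were joined into loci where their spans overlapped by at least 1 base on the same strand, which gave 927 loci over both libraries. The data are 1 group without a control: adrenal glands of female B6CASTF1/J mice, an F1 cross, with an age of 18 to 20 months, each library started from 1 µg of total RNA. The labels name 2 females and give them 1 donor entry. The models were chosen by their class and read count, so their number and level are a description, with no test between libraries in support.

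Steroid hormones are made in the adrenal cortex, and adrenaline and noradrenaline come from the medulla. RNA outside annotated genes is known to come from promoters that are also transcribed on the other strand, from reading past a gene's 3′ end, from repeated elements, from pseudogene copies, and from noncoding RNA genes that a given annotation does not list. Long reads carry strand, ends and splicing in 1 molecule. Position, exon number and length are given here as the file's coordinates of each model.

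The mouse reads numbered 1460022 in replicate 1 and 991989 in replicate 2. All 10 cortex and all 8 medulla marker genes had reads in both libraries, with 112505 and 73509 reads on the cortex list. The skeletal muscle list, 4 genes, had 985 reads in replicate 1 and 1 read in replicate 2, and the fat list, 5 genes, had 7255 and 3412 reads. In whole tissue, fewer cells of a type and less RNA per cell cannot be told apart, and the part of this unequal content in the values below was not tested. Sequence was at hand for the 300-base RefSeq promoter windows of GRCm38.p6 alone, 250 bases before and 50 after a gene's start, and 107 loci (11.5%) overlapped one. Shown first are windows where the locus runs on the strand opposite to the gene and has its 5′ end base at the gene's start site, in both libraries. They are written 5′ to 3′ on the gene's strand, and capitals mark the bases the locus covers on the other strand. The Tbc1d22a window is chr15:86214209-86214508 (+), the P4hb window chr11:120573204-120573503 (−) and the Setd2 window chr9:110532347-110532646 (+).
Tbc1d22a: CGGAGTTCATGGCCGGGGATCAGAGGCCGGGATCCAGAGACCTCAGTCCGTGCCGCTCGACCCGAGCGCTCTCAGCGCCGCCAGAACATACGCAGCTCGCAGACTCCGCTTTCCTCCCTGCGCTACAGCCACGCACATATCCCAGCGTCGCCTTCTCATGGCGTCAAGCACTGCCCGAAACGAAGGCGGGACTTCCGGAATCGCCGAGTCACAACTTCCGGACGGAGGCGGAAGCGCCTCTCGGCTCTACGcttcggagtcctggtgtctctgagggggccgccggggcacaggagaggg
P4hb: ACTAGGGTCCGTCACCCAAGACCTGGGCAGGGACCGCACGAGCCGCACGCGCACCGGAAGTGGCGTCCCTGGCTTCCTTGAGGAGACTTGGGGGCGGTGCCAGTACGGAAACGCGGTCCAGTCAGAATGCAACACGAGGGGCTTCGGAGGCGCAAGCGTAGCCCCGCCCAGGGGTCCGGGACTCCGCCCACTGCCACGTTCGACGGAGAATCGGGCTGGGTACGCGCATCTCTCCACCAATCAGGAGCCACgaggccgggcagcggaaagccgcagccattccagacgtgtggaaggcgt
Setd2: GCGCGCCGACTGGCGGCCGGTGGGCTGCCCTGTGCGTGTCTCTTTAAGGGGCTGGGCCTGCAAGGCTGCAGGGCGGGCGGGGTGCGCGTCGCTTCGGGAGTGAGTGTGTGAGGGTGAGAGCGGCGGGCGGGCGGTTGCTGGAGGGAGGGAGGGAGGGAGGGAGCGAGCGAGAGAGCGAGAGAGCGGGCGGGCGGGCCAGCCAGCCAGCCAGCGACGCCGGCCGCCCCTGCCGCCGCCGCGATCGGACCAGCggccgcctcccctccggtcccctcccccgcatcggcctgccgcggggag
The next windows hold loci of the short kind described below, also opposite to the gene. The Akr1d1 window is chr6:37529923-37530222 (+) and holds the whole of a 177-base locus, and the Yif1b window is chr7:29237344-29237643 (+) and holds 133 bases of a 174-base locus.
Akr1d1: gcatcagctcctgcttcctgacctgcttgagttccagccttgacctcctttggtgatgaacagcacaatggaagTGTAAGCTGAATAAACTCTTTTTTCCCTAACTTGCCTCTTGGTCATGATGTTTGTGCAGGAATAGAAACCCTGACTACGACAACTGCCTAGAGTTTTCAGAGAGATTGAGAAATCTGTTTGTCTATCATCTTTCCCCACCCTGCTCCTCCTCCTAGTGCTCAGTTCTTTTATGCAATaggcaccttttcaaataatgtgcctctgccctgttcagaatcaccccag
Yif1b: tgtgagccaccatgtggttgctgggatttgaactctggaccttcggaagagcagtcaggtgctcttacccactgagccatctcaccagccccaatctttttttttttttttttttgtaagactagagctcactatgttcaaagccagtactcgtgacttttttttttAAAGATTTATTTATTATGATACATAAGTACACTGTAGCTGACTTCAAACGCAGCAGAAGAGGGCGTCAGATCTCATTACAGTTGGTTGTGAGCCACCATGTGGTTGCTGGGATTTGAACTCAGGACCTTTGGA

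The models made up a small share of the RNA. They held 3952 reads in replicate 1, 0.271% of mouse reads (95% exact binomial interval 0.262% to 0.279%), and 3829 reads in replicate 2, 0.386% (0.374% to 0.398%). Intervals cover counting error only, since the reads carry no molecular identifiers in these tables. The 10 models with most reads held 23.6% and 28.3% of these reads. Just inside the threshold, 287 and 275 models had exactly 2 reads. Just outside it, 1928 and 1870 intergenic models had 1 read.

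Of the 927 loci, 230 had a model of 2 or more reads in each library. That is 39.6% of the 581 loci of replicate 1 and 39.9% of the 576 loci of replicate 2. The shared loci held 70.7% and 70.4% of the reads of the models. At loci with 2 reads, 20.9% of replicate 1 and 23.9% of replicate 2 were matched. At loci with 20 or more reads, 88.6% of 35 and 90.6% of 32 were matched. For comparison, annotated genes with 2 reads in 1 library had 2 or more in the other for 34.8% of 1149 genes of replicate 1. For replicate 2 it was 60.0% of 1164 genes. Gene reads were summed over all models of a gene, while a matched locus needed a single model of 2 or more reads. The shares of genes and loci are therefore not on the same measure.

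**Figure D1:**
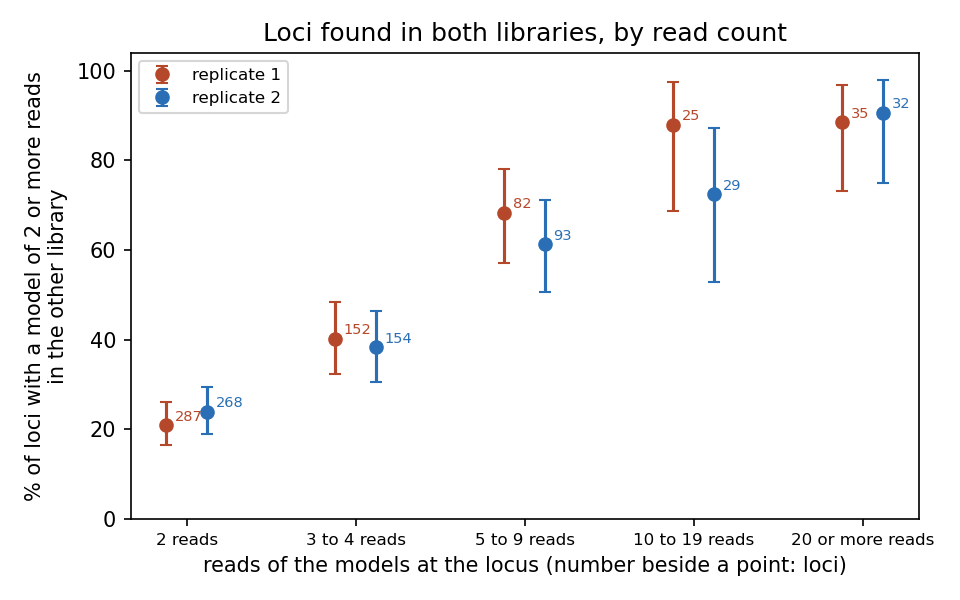
Share of loci with a model of 2 or more reads in the other library (y axis, %), by the reads of the models at the locus (x axis). Points are libraries with 95% exact binomial intervals. The share is 20.9% and 23.9% at 2 reads and 88.6% and 90.6% at 20 or more.

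Of 351 unmatched loci in replicate 1 and 346 in replicate 2, 114 and 118 had an intergenic model of 1 read in the other library. Another 53 and 51 were covered there on the same strand by models of other classes, most often antisense (29 and 37 loci) or models of annotated genes (25 and 13 loci). No read of any class on the same strand covered at least 10 exon bases at 184 and 177 loci, and their median was 2 reads.

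The 5′ and 3′ ends of the top models could be set side by side at 225 shared loci. The 3′ end was within 10 bases of the other library's at 75.6% of loci, and at the same base at 42.2%. The 5′ end was within 10 bases at 63.1% and at the same base at 40.4%. Both ends were within 10 bases at 47.1%, so the other matched loci shared a place and strand but not both ends.

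Nearly all models were single exons. Replicate 1 had 543 of 585 and replicate 2 had 555 of 582. The spliced share was 7.18% (interval 5.22% to 9.58%) in replicate 1 and 4.64% (3.08% to 6.68%) in replicate 2. The share was 76.5% and 71.4% over models of all classes with 2 or more reads, 2.88% and 2.25% for antisense models, and 11.8% and 10.2% for intergenic models of 1 read. No model had more than 4 exons. The shortest gaps between exons were 34 bases in replicate 1 and 35 and 36 bases in replicate 2. Whether gaps this short are splicing was not tested.

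Median model length was 700 bases in replicate 1 (quartiles 178 and 1816) and 617 bases in replicate 2 (179 and 1624). Antisense models had medians of 1579 and 1508 bases, and all classes together 2022 and 2034 bases. The intergenic lengths had a narrow peak. The modal length was 177 bases, and single exons within 7 bases of it, 170 to 184 bases, a width set after the lengths were seen, made up 109 of 543 single-exon models in replicate 1 (20.1%) and 77 of 555 in replicate 2 (13.9%). The same lengths made up 2.17% and 1.67% of single-exon antisense models. Among single-exon intergenic models of 1 read they made up 15.8% and 13.3%, so the peak was not limited to models of 2 or more reads. The shortest model was 1 base long in replicate 1 and 81 bases in replicate 2, and 42.7% and 39.5% of models were over 1000 bases. In replicate 1, 4 intergenic models were 1 base long, and 61 and 83 antisense models were in the 2 libraries. Model lengths are therefore the file's coordinates, and whether they give the length of the RNA was not tested.

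**Figure D2:**
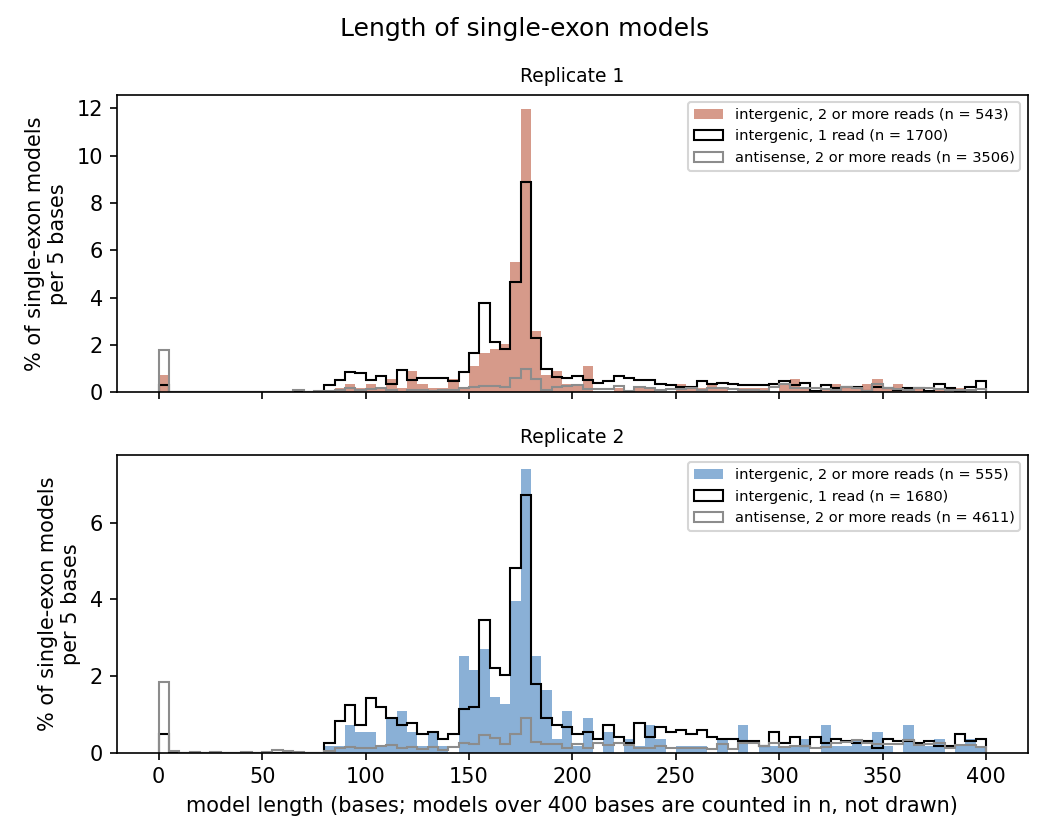
Length in bases (x axis, bins of 5) of single-exon models as % of each class (y axis), for intergenic models of 2 or more reads (filled), of 1 read (black) and antisense models (grey). The intergenic models peak between 170 and 184 bases in both libraries.

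The short single exons formed 140 loci, of which 45 (32.1%) were shared, against 185 of the 787 other loci (23.5%). They included 3 of the 15 shared loci with the highest mean level. The locus at chr2:50017464-50017641 (−) had 68 and 61 reads and model lengths of 177 and 178 bases, 48788 bases from Lypd6. The locus at chr17:74140818-74140999 (+) had 68 and 59 reads and lengths of 182 and 180 bases. At chr7:126643196-126643376 (−) there were 56 and 48 reads and lengths of 179 and 180 bases. At these 3 loci the 95% counting interval of the scaled ratio of replicate 1 over replicate 2 included 1. Over the 48 shared loci whose replicate 1 model had such a length, 83.3% had both ends within 10 bases, against 25.3% of 79 loci with a replicate 1 model over 1000 bases. Annotated genes were touched by 5 of 140 short loci (3.57%) and by 257 of 786 other loci (32.7%), and the median distance to a gene end was 5592 bases for the short loci and 1077 bases for the others.

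Of these short loci 2 had enough sequence in a promoter window to search for copies, the Akr1d1 and Yif1b loci printed above. The Akr1d1 locus, beside a gene for a steroid 5-beta-reductase, had 9 reads in replicate 1 and 0 in replicate 2. Its stretch aligned over at least 75 bases at 75% identity or more to 13 other promoter windows of 32851. The Yif1b locus had 2 reads and 1 read, and its stretch of 133 bases aligned to 124 other windows. Over all 105 stretches of at least 100 bases, 93 had no copy and 5 had copies in 10 or more windows. No repeat annotation was used here, and the part of repeated sequence in the length peak was not tested.

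Position was taken against GENCODE M21. One locus lay on a scaffold with no gene, chrUn_GL456382:14201-14748 (−), with 55 and 60 reads. Of the other 926 loci, 262 (28.3%) shared exactly 1 base with an annotated gene, its terminal base, and none shared more. The median distance to a gene end was 1439 bases, with 43.2% of loci within 1000 bases, 71.4% within 5000 and 17.3% over 10000. The nearest gene was on the same strand for 51.6%, and 30.6% lay within 5000 bases downstream of a gene on their strand. Of the models with 2 or more reads, 27.0% and 27.8% touched a gene, against 17.7% and 18.3% of the intergenic models of 1 read.

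There was a gap beside the gene ends. Among loci whose 3′ end faced the gene, 50 touched it and the nearest of the other 345 was 300 bases away. Among loci whose 5′ end faced it, 212 touched it, and the nearest of the other 319 were 45 and 359 bases away. Where a locus touched a gene, the 5′ end was the same base in both libraries at 78.1% of 64 shared loci, against 25.5% of 161 that touched none. Whether the authors' processing placed nearby read ends on annotated ends was not tested, so a shared terminal base is given as the file's coordinate, not as the end of the RNA.

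The touching loci fell mainly into 2 arrangements. On the opposite strand at a gene's 5′ end lay 113 (43.1%), of which 103 had a protein-coding neighbour. On the same strand downstream of a 3′ end lay 99 (37.8%), of which 44 had a protein-coding and 52 a pseudogene neighbour. The other arrangements held 29 loci (opposite strand, 3′ end) and 21 loci (same strand, 5′ end). Among the 265 loci over 5000 bases from a gene, the 4 arrangements held 54 to 74 loci each.

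**Figure D3:**
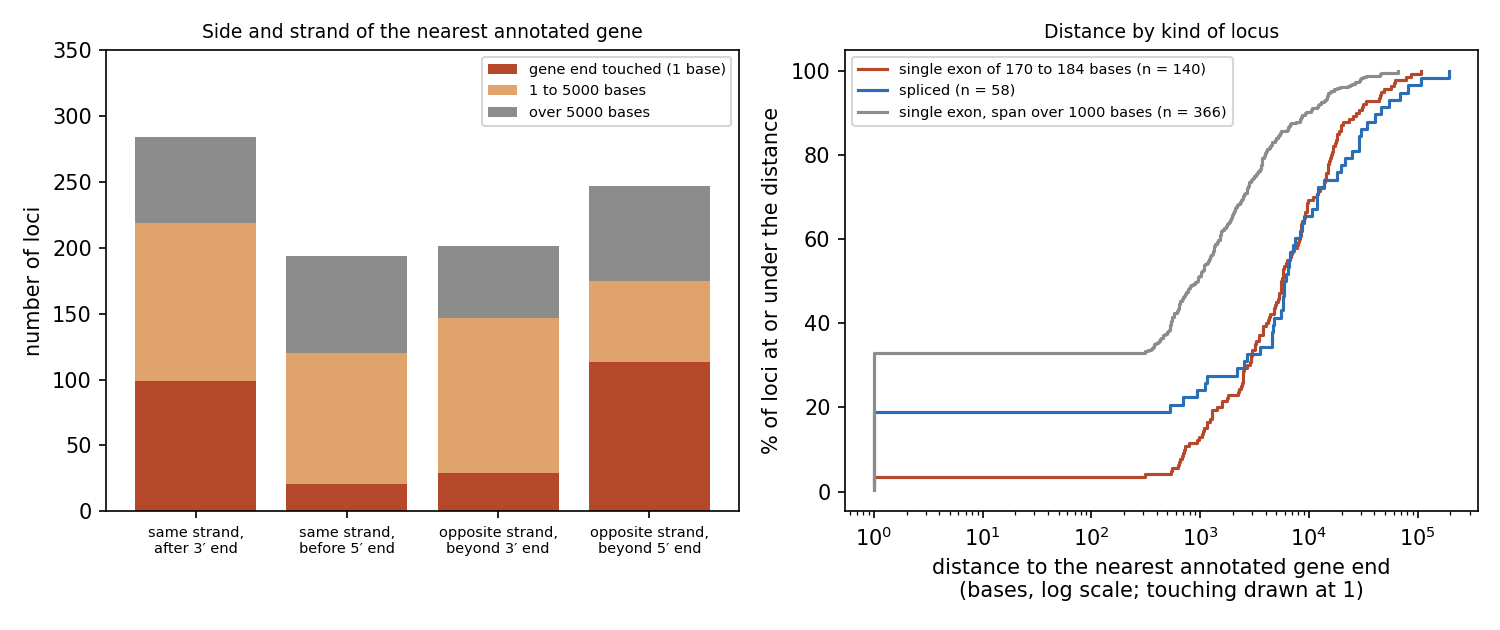
Left, number of loci (y axis) by side and strand of the nearest annotated gene, coloured by distance; 113 loci touch a gene's 5′ end from the opposite strand and 99 follow a 3′ end on the same strand. Right, cumulative % of loci (y axis) by distance in bases (x axis, log scale) for 3 kinds of locus; short single exons have a median of 5592 bases.

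The protein-coding genes beside the loci were mostly expressed. They were the nearest gene of 609 of the 926 loci, and neighbours of other types were not counted here. Of 561 protein-coding genes that were the nearest gene of a locus, 492 (87.7%) had reads in both libraries, against 57.6% of all 22028. The median level of the neighbours was 26.4 CPM against 3.19 CPM, where CPM are reads per 1000000 after TMM scaling. Neighbours touched at the 5′ end from the opposite strand were detected in both libraries in 98 of 103 cases. Those followed on the same strand past the 3′ end were detected in 43 of 44. Neighbours over 5000 bases away had lower shares, 70.0% to 81.4% over the 4 arrangements.

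At 31 loci the 5′ end base was the RefSeq start site of a gene on the other strand, and 6 of them were shared. These positions too are the file's coordinates. Their 31 windows had a median GC content of 64.7% and a median of 28 CpG dinucleotides, against 52.7% and 7 over all 32851 windows. The 119 windows overlapped by a locus in any arrangement had medians of 62.3% and 26, close to those of the 31. The motif TATAAA, searched on both strands, was in 0 of the 31 windows, 3.36% of the 119 and 13.6% of all windows. Windows of genes detected in these libraries were not compared on their own. The locus at chr15:86212657-86214459 (−), opposite the Rab GTPase-activating gene Tbc1d22a, had 41 and 30 reads and 1803 bases in both libraries. The locus opposite P4hb, which encodes protein disulfide isomerase, had 7 and 3 reads at chr11:120573253-120573758 (+). The loci opposite Larp1, an RNA-binding protein gene (5 and 3 reads), Setd2, a histone methyltransferase (3 and 2), Efna5, an ephrin ligand (2 and 6), and Usp24, a ubiquitin protease (2 and 2), were thinner. A letter match is a description of the window, not of a site in use.

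Loci past 3′ ends included the one with most reads in replicate 1. At chr15:74848896-74851010 (−), directly after the annotated end of Cyp11b2, the aldosterone synthase gene of the cortex, intergenic models had 210 and 121 reads with lengths of 2115 and 2099 bases. Models of all classes there had 533 and 250 reads, since models assigned to annotated genes on this strand also reach into this stretch. Dbh, which makes noradrenaline in the medulla, was followed at chr2:27183200-27186896 (+) by a locus of 4 and 2 reads and 3697 and 3695 bases. They were the marker genes that neighboured a shared locus. Th, the first enzyme of catecholamine synthesis, and Adipoq, the fat hormone adiponectin, were each followed on their strand by a locus of replicate 1 alone, with 4 and 2 reads, 2259 and 1385 bases past the end. Cyp11b1, the corticosterone-producing enzyme gene, had a locus of 2 reads in replicate 2 alone, 2987 bases beyond its 5′ end on the other strand.

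Of the 15 shared loci with the highest mean level, 6 had a pseudogene as nearest gene, against 167 of all 926 loci. Directly after Gm10231, a processed pseudogene on chromosome 17, a locus of 148 and 150 bases had 77 and 83 reads, against 18 and 7 reads for the pseudogene. After Gm6969 on chromosome 12 there were 73 and 38 reads, against 28 and 17 reads for that pseudogene. The locus touching Ptges3-ps from the opposite strand on chromosome 6 had 41 and 55 reads. At least 50% of each of these loci lay within the RefSeq entry of the same pseudogene. At Gm10231 and Gm6969 the division of reads between locus and pseudogene therefore rests on the GENCODE M21 ends. Pseudogenes share sequence with their parent genes, and how reads with several possible places were treated is not given in the sources used here.

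Spliced models were few, and a locus is called spliced if any of its models has more than 1 exon. Of 42 in replicate 1, 16 (38.1%) lay at a shared locus, and of 27 in replicate 2, 13 (48.1%) did, against 40.0% of all intergenic models in each library. Counting models of any class and read number in the other library, 21 of 42 and 20 of 27 had all their introns there, and 18 and 7 had none. Of 58 spliced loci, 25 (43.1%) lay at least 50% within a RefSeq gene, 22 of them entries for long noncoding RNA. Over all loci it was 314 (33.9%), with 97 long noncoding, 150 protein-coding and 61 pseudogene entries. The RefSeq table used gives no strand, so an entry may lie on the other strand. The locus at chr6:117879479-117884593 (+), RefSeq Gm38882, had 6 and 5 reads and the same intron of 3822 bases in both libraries. Those at Gm38872, with an intron of 81 bases and 4 and 5 reads, and at Gm35162, with an intron of 1171 bases and 2 and 2 reads, were also spliced alike in both libraries.

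A group of spliced models had nearly the same structure at different places. It was noticed in the values and then searched for in all 1696 2-exon models not assigned to a known gene, antisense ones included. In all, 13 models at 7 loci on 5 chromosomes had an intron of 5299 to 5319 bases, a first exon of 217 to 223 bases and a spliced length of 2724 to 2739 bases, and 4 of the loci had such a model in both libraries. They had 56 reads in all, and 6 of the models were of the intergenic class. At chr7:48124177-48132211 (−) intergenic models had 19 and 5 reads, and at chr10:79314315-79322344 (−) the models had 8 and 2. Their sequences were not compared.

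The 2 libraries gave different read numbers at several of the loci with most reads, as the plot of reads by locus shows. At chr13:55184770-55187608 (+), 16011 bases past Fgfr4, a fibroblast growth factor receptor, intergenic reads numbered 69 in replicate 1 and 291 in replicate 2. The top model there had 2837 bases in replicate 1 and 149 bases in replicate 2. At chr2:75638324-75641840 (+) there were 93 and 220 reads, and the top models had 192 and 3147 bases. Other abundant shared loci had counts closer to each other. At chr2:180719391-180720964 (−), 658 bases beyond the GENCODE M21 3′ end of Gid8 on the other strand, there were 61 and 43 reads and 1574 bases in both libraries. At least 50% of this locus lay within the RefSeq entry of Gid8. At chr14:32115391-32118248 (+), 12189 bases past Oxnad1, there were 83 and 63 reads, with top models of 405 and 2606 bases. At chr7:34182919-34183114 (−), 1385 bases past Pdcd2l, there were 84 and 51 reads, with top models of 179 and 196 bases. At the Oxnad1 locus, then, the counts were close while the top models differed. Of 125 loci with at least 10 reads over both libraries, 36 passed an exact binomial test with Benjamini-Hochberg adjustment over 11193 features, 9 higher in replicate 1 and 27 in replicate 2. The percentage called over all features was 12.7, with 6.26 higher in replicate 1 and 6.39 in replicate 2. Since the reads tested also chose the loci, nothing is read from that count, and its p-values compare 2 libraries. Past 2-fold without a test were 49 loci (39.2%), and 13.1% of all features, which are not matched for reads. At 10 to 19 total reads it was 36.5% of 63 loci and 32.6% of 1857 genes. At 20 to 49 reads it was 47.1% of loci and 17.7% of genes, and at 50 or more 35.7% and 5.04%. The reads chose the loci here too, so nothing is read from these shares. The median log2 ratio of replicate 1 over replicate 2 was -0.34 for the loci and -0.01 over all features.

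**Figure D4:**
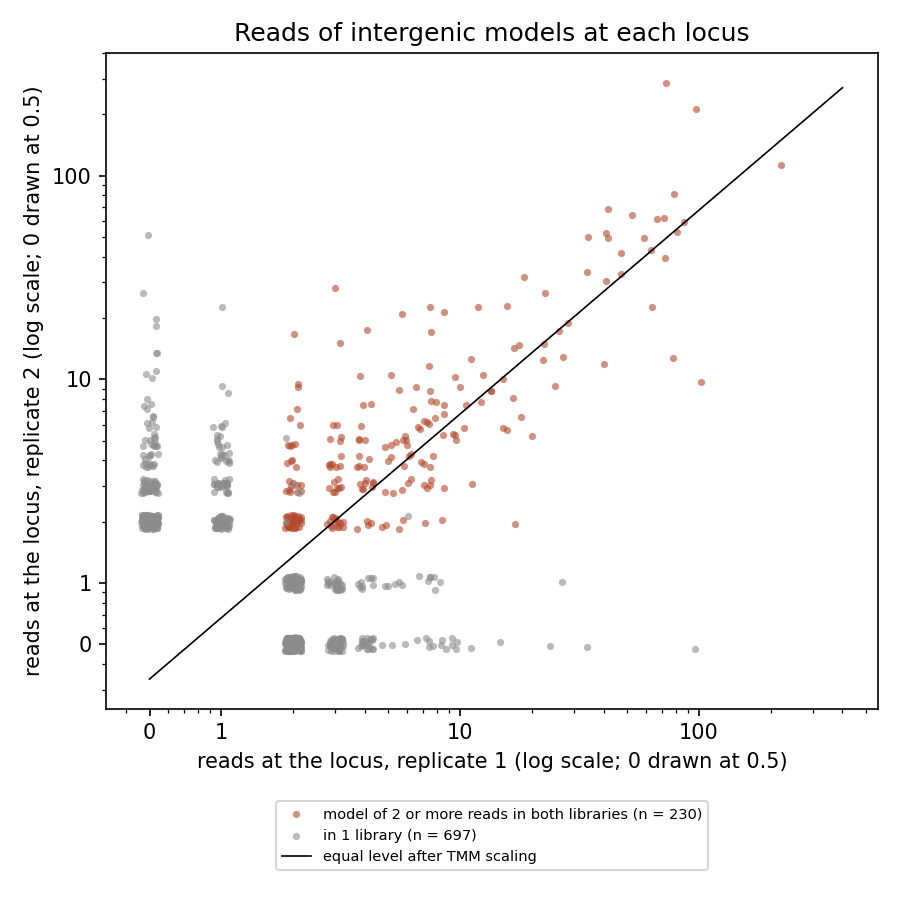
Reads of intergenic models in replicate 1 (x axis) and replicate 2 (y axis) at each of 927 loci, on log axes with 0 drawn at 0.5 and points spread slightly. The line marks equal levels after scaling; the 230 shared loci scatter around it, and the lowest row and leftmost column are loci with 0 intergenic reads in 1 library.

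At several loci with the largest ratios, the other library held the reads under another class. At chr11:100457022-100461670 (+), touching the 3′ end of Klhl10, intergenic models had 93 reads in replicate 1 and 0 in replicate 2. Antisense models on the same strand had 69 reads in replicate 2. At chr19:4061501-4066103 (−), near Gstp3, a glutathione transferase gene, intergenic reads were 0 and 54 and reads of any class 43 and 57. At chr5:138363272-138363719 (−) they were 0 and 19, and of any class 51 and 19, and at chr7:92638300-92639739 (−) 23 and 0, and of any class 23 and 29. Opposite the GENCODE M21 3′ end of Cdyl2 at chr8:116570811-116573964 (+) they were 14 and 0, and of any class 14 and 7. Of the Klhl10, chromosome 5, chromosome 7 and Cdyl2 loci, at least 50% lay within the RefSeq entries of Klhl11, Got2-ps1, Gm26944 and Cdyl2.

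Shared loci also had reads under other classes. At chr4:145568804-145571613 (−) intergenic reads were 98 and 9 and reads of any class 99 and 125, of which 116 in replicate 2 were antisense. At chr11:86811826-86813527 (−), before the 5′ end of Dhx40, an RNA helicase gene, they were 41 and 71, and of any class 117 and 71. On the X chromosome at chrX:32502591-32505317 (+) they were 76 and 12, and of any class 80 and 76, with top models of 2727 and 2376 bases. The spliced locus opposite the 5′ end of Prep, a prolyl endopeptidase gene, at chr10:45064854-45067203 (−), had 2 and 17 intergenic reads and 18 and 17 of any class. At least 50% of it lay within the RefSeq entry 2310075K07Rik. The spliced locus opposite Zfand2a at chr5:139484549-139512007 (+) had 9 and 3 intergenic reads and 9 and 13 of any class. The spliced locus at chr13:119661768-119669868 (+) had 4 and 18 and then 21 and 22. At the Prep, Zfand2a and chromosome 13 loci the top model was spliced in replicate 1 and a single exon in replicate 2. A single-exon locus near the pseudogene Gm48064, at chr12:23021937-23023919 (−), had an intergenic model of 2 or more reads in replicate 2 alone. It had 1 and 23 intergenic reads and 14 and 23 of any class. Of the 36 loci past the test, 23 were called in the same direction on reads of any class. Another 12 were not called and 1 was called the other way, and 16 of the 36 were within 2-fold. With reads of any class at the loci, 12.6% of all features were called. Reads of any class include the intergenic reads tested before, so nothing is read from these counts.

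Other loci differed in reads of any class too. Near Speer4a, at chr5:26044216-26046885 (−), intergenic reads were 28 in replicate 1 and 1 in replicate 2, a scaled ratio of 18.9 with a counting interval of 3.13 to 774, and reads of any class 30 and 1. At chr2:53694365-53696121 (−), after the pseudogene Gm13502, there were 32 reads in replicate 1 and 0 in replicate 2, which against 3 reads per library is at least 7.21-fold higher in replicate 1. This bound leaves out the counting error of the 32 reads, and the lower 95% counting limit of the ratio was 5.53. At least 50% of the locus lay within the RefSeq entry of Gm38481, a protein-coding gene. At chrX:29563204-29564014 (−), after the pseudogene Gm15432, there were 0 reads in replicate 1 and 17 in replicate 2, at least 8.38-fold higher in replicate 2 on the same floor, with a lower counting limit of 6.10. The pseudogene itself had 36 reads in replicate 1 and 0 in replicate 2, the opposite order.

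**Figure D5:**
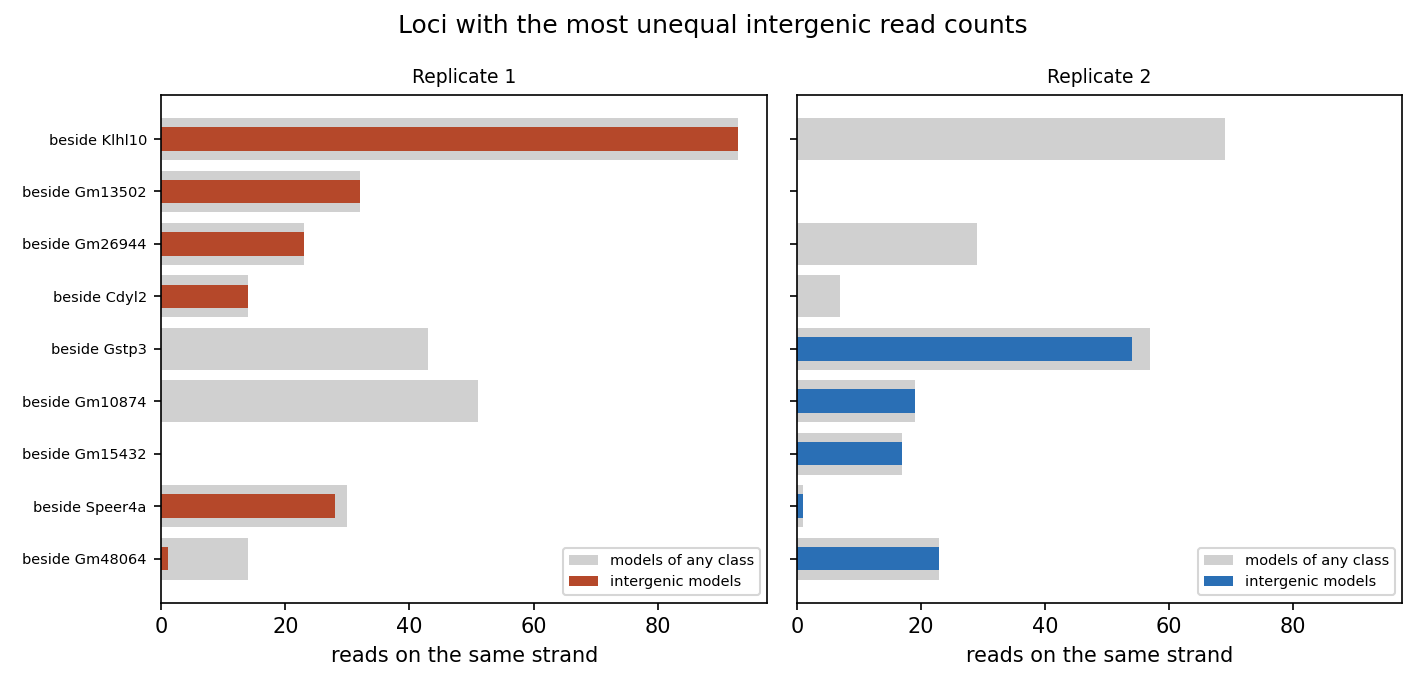
Reads on the same strand (x axis) in replicate 1 (left) and replicate 2 (right) at 9 loci named by their nearest gene (y axis), for models of any class (grey) and intergenic models (coloured). At the locus beside Klhl10 the intergenic reads are 93 and 0 and the reads of any class 93 and 69.

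Chromosome Y carried 8 intergenic loci in these female libraries, with 37 and 42 reads, and 2 were shared. The locus at chrY:20670650-20672234 (+) had 27 and 10 reads and the locus at chrY:43918754-43923547 (−) had 6 and 22. The top model of the latter was spliced in replicate 1 and a single exon in replicate 2. The Y genes Ddx3y, Uty, Kdm5d and Eif2s3y had 0 reads in both libraries, annotated genes of the Y chromosome together had 8 and 12 reads, and Xist, the noncoding RNA of the inactive X chromosome, had 20 and 36 reads. Where else these reads match was not tested.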

How the data were processed

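Per the file headers and the labels, the deposited values are raw counts of long reads per transcript model, on mm10 with GENCODE M21 and in the field names of the TALON program. They carry no normalization, and spike-in reads (18340 and 15552) were left out. Aligner, read filters and rules for model ends are not given in the sources used here. Novelty classes and coordinates are as deposited.

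Locus reads are those of all intergenic models overlapping a locus on its strand, 1-read models included. Distances were taken to gene ends of GENCODE M21. Levels were scaled with TMM (edgeR 4.0.16, genes with 10 or more reads), tested by an exact binomial test at an adjusted p of 0.05, with a prior of 0.5 reads for log2 ratios. The test was run on simulated data first (Python 3.11.15). Copies were searched with blastn 2.17.0. Promoter windows and gene entries are from RefSeq, GRCm38.p6.

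The loci named are the 15 shared with the highest mean CPM, the 6 most abundant shared spliced loci, the 4 largest and 4 smallest ratios past the test, the 4 with most reads in 1 library only, and neighbours of marker genes; 1 of these loci is not reported here. The short, promoter and like-structured loci were chosen after their values were seen. Members and lists were chosen with earlier results of these data known. Alternatives varied the read minimum, the matching, the neighbours and the scaling. With no genome sequence used here, ends and splice sites were not examined.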

Additional observations from a re-analysis of the deposited data

Results flagged for a closer look

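Genes of the intergenic class also carried models of other transcript classes (genomic, incomplete splice match or new splice forms), which the comparisons above do not use as members. There were 149 such models with 286 reads in replicate 1 and 121 with 273 reads in replicate 2. They drew attention because they lie outside the models described yet hold reads, with no control library to set them against. Of these models 96 and 90 were spliced, and 77 and 70 were of the genomic class.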

How the results depend on the processing

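No paired analysis was possible because the series holds 1 group of 2 libraries. The number of shared loci, 230, was 707, 144, 81 and 38 at a minimum of 1, 3, 5 and 10 reads. It was 462 where models of 1 read in the other library could match and 566 where models of any class could. Exon overlap, overlap of 50% of both spans and either strand gave 230, 193 and 242.

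The spliced share, 5.91% over both libraries, was 9.81% at 1 read, 2.46% at 10 reads and 3.33% weighted by reads. Median length, 662 bases, was 528 at 1 read and 574 at 10 reads. Median distance, 1439 bases, was 2387, 1224.5, 951 and 1303.5 at 1, 3, 5 and 10 reads, 3225.5 to protein-coding genes and 19260.5 to the 3′ end of the nearest gene upstream on the same strand. The share on the strand of the nearest gene, 51.6%, was 49.7%, 53.7%, 56.4% and 63.4% at those read minimums and 45.2% with protein-coding neighbours. The majority on the gene's strand therefore did not hold in 2 of these settings. The share within 5000 bases downstream on the same strand, 30.6%, was 25.7%, 36.5% and 36.6% at 1, 5 and 10 reads, 18.9% for protein-coding genes, 16.2% within 1000 bases and 40.2% within 10000. Beyond the changed filter, neighbours or limit, the cause was not tested. With 1 library left out, the spliced share ran over 4.64% and 7.18%, length over 617 and 700 bases, distance over 1439 and 1499 bases, strand share over 51.0% and 53.3% and downstream share over 27.5% and 32.2%.

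The count of loci past the binomial test, 36, lay between 24 (at least 20 reads) and 47 (at least 5 reads) over the alternatives that ran it. Scaling by spike-in totals moved the median log2 ratio of all features to 0.32, against -0.01 after TMM, and gave 13 loci higher in replicate 1 and 22 in replicate 2, against 9 and 27. It called 22.4% of all features, against 12.7% with TMM, and the loci's own median log2 ratio was -0.02, against -0.34. At a minimum of 5 reads that median was -0.56. In replicate 1, 49.1% of models, and in replicate 2, 47.3%, rest on 2 reads, which limits ends, lengths and matching.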
